A study of Mus musculus with 6 samples.

Results

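The genes described here were 10 target genes of the transcriptional coactivator YAP, followed gene by gene across the 15 deposited nuclei clusters, numbered 0 to 14, and between the culture media. They were Myof, Ptpn14, Ccn1, Ccn2, F3, Rbms3, Crim1, Asap1, Nuak2 and Dock5, out of the 31319 genes of the count matrices. All 10 were found by their Ensembl identifiers. The list was chosen with earlier results of these data known, so counts of its genes beside all genes are descriptions. RNA was counted in single nuclei of C57BL/6 mouse jejunal organoids, from mice 8 to 12 weeks old, which are epithelial cultures grown from intestinal crypts. Freshly passaged crypts were grown either in medium conditioned by quiescent mouse embryonic fibroblasts (QCM), which were growth arrested by serum deprivation, or in medium conditioned by senescent ones (SCM), with 3 samples per medium. The study made fibroblasts senescent by irradiation or by doxorubicin, and the labels do not say which was used here. The labels do not say which mouse each sample came from, so p-values measure the spread between these samples. The comparison asked whether YAP target genes were raised by the secretions of senescent cells, and in which kinds of nuclei.

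YAP and its paralog TAZ are held in the cytoplasm when the Hippo kinases phosphorylate them, and otherwise enter the nucleus and switch on genes through TEAD transcription factors. In the gut epithelium this pathway is known for its part in regeneration after injury, when crypts pass through a state that resembles the fetal epithelium. The listed genes act at different points. Ccn1 and Ccn2 encode secreted matricellular proteins and are classical YAP reporters. F3 encodes tissue factor, the trigger of coagulation at the cell surface, Myof a membrane repair protein of the ferlin family, and Crim1 a membrane protein that binds BMPs. Ptpn14 is a phosphatase that binds YAP and restrains it, and Nuak2 is a kinase that acts on the actin cytoskeleton. Asap1 is a GTPase-activating protein for Arf proteins, Dock5 an exchange factor for Rac, and Rbms3 an RNA-binding protein.

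The samples differed in ways that bear on every value below. SCM replicate 1 held 430 nuclei, against 3791 to 10833 in the other samples, and 175 of them (40.7%) carried a barcode sequence that was also present in QCM replicate 1, whereas no other pair of samples shared more than 36. Of these 175 pairs 40 lay in the same cluster, and the profiles of pairs with the same barcode had a median Pearson correlation across genes of 0.406 on the log(UMIs + 1) scale, against 0.405 for mismatched pairs of the same nuclei. Results are therefore also given without SCM replicate 1 and without the nuclei of these barcodes. Totals ran from 4071926 to 41035733 unique molecular identifiers (UMIs, the counted RNA molecules) per sample. UMIs of ribosomal protein genes made up 14.2%, 4.96% and 10.4% in QCM replicates 1 to 3 and 4.22%, 2.64% and 7.30% in the SCM replicates. Levels are in counts per 1000000 UMIs (CPM) of the sample, or of the sample's nuclei in a cluster.

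By markers, cluster 6 was goblet- and Paneth-like (7 of 8 goblet and 4 of 7 Paneth markers), cluster 8 enterocyte-like (7 of 10), clusters 9 and 10 enteroendocrine-like (11 and 6 of 11) and cluster 11 tuft-like (6 of 8). Cluster 7 was fetal-like, with 10 of 15 fetal markers, among them Clu, Ly6a and Anxa1. None of these was among its 10 leading genes, which included Col4a1, Col4a2 and Fn1. Cluster 1 had markers of several mature types, and the other clusters stayed unnamed. The 6 epithelial genes, such as Epcam and Cdh1, had a summed level of 2716 to 4111 CPM in QCM and 2882 to 3728 CPM in SCM. Fibroblast markers were low, with a summed level over 11 genes of 3.78 to 9.94 CPM in QCM and 2.70 to 4.71 CPM in SCM.

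Positions are those of mouse build GRCm38 with GENCODE M21, and reads where genes overlap are uncertain. Myof lies at chr19:37899036-38043577 on the minus strand, F3 at chr3:121723537-121735048 on the plus strand, Ccn1 at chr3:145646976-145649981 on the minus strand and Nuak2 at chr1:132316126-132333488 on the plus strand, and none of these overlaps another gene. Ccn2 (chr10:24595442-24598683, plus) overlaps an antisense gene, Rbms3 (chr9:116572746-117629913, minus) overlaps 4, and Ptpn14 (chr1:189728268-189876695, plus) overlaps 1 gene on each strand. Crim1 (chr17:78200248-78376592, plus) overlaps Fez2 on the other strand and 1 gene on its own. Asap1 (chr15:64086857-64382919, minus) and Dock5 (chr14:67752135-67933442, minus) each overlap 1 gene on their own strand, and Asap1 2 more on the other.

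Upstream sequence from RefSeq (GRCm38.p6) was matched for 6 of the 10 genes, as the 250 bases before each start site. TEAD factors are known to bind GGAATG, and AP-1, which often shares target genes with YAP, binds TGANTCA. Both motifs were searched on both strands. GGAATG or its reverse complement was found upstream of Ptpn14, Ccn1 and Crim1 and in 12.6% of all 32851 windows of this length, and TGANTCA was found upstream of F3 and in 6.75% of all windows. The windows of Myof and Rbms3 held neither sequence. The 4 windows with a match are shown 5′ to 3′ on the gene's strand with the matches in capitals, since they are the listed windows in which a motif was found. The matches begin at -146 in Ptpn14 (chr1:189728018-189728267), -103 in Ccn1 (chr3:145649986-145650235), -79 in Crim1 (chr17:78199998-78200247), and -146 and -135 in F3 (chr3:121723287-121723536), counted from the start site.
Ptpn14: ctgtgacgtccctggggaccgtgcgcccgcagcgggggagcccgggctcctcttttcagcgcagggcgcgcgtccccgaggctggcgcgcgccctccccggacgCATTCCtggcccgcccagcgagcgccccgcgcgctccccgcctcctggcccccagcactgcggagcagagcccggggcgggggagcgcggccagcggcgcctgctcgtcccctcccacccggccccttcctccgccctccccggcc
Ccn1: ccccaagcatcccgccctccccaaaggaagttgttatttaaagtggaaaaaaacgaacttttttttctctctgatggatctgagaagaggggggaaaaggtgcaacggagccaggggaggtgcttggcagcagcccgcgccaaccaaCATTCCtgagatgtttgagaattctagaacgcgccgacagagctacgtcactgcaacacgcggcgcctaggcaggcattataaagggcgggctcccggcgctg
Crim1: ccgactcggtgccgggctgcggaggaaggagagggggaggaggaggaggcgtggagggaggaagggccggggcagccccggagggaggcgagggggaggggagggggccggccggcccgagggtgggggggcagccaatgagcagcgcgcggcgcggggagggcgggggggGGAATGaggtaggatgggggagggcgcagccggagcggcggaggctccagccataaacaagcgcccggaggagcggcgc
F3: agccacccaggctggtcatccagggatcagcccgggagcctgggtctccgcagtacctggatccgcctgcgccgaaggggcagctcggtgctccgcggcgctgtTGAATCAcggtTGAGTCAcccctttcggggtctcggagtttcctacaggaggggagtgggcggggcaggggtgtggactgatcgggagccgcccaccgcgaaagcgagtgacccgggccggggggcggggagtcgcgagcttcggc

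Over all nuclei of a sample, all 10 genes had a higher estimate in SCM than in QCM, but none passed the test across all genes. The genes fell into 2 sets by size. Myof, Ptpn14, Ccn1, Ccn2, F3 and Rbms3 had log2 ratios from 1.22 to 3.62, and Crim1, Dock5, Asap1 and Nuak2 from 0.08 to 0.28. With the edgeR quasi-likelihood test, 0 of 10 genes had an adjusted p under 0.05 (0.0% of all 19046 genes tested), and their adjusted p ran from 0.927 to 0.975. In simulated counts this test recovered 11% of 2-fold and 77% of 4-fold changes set in the better counted genes. The absence of calls therefore does not show that a gene was unchanged. All 10 genes passed the filter on low counts, but Ccn2 did so through the SCM samples alone, with all QCM values under the cutoff of 0.444 CPM, so it is left out of the next count. At an unadjusted p under 0.05, 5 of the other 9 were higher in SCM and 0 lower, beside 1.46% of all genes tested that were higher. In either direction 866 genes (4.55%) were under that value. At the adjusted threshold voom with limma called 0 of the 10. DESeq2 called 2, Myof and Ptpn14, beside 0.105% of all genes tested. In simulated counts over all nuclei DESeq2 made 69 false calls and edgeR 7. A higher estimate was found for 48.6% of all genes tested. The median log2 ratio was 1.23 over the 10 genes, 1.22 without Ccn2 and -0.01 over all genes. With library size alone as scaling, the median over all genes moved to 0.14.

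Among the secreted factors, Ccn2 had 0.0975, 0.0824 and 0.402 CPM in QCM replicates 1, 2 and 3 and 0.982, 5.87 and 0.634 CPM in the SCM replicates. The groups did not overlap, but these levels rest on 2 to 8 UMIs per QCM sample and on 4, 122 and 17 UMIs in SCM. In SCM replicate 2, 49 of 5026 nuclei carried the 122 UMIs, and the 10 highest nuclei held 80 of them. Its log2 ratio was 3.62 ± 1.03 (SE), and 1.89 without SCM replicate 2. Since the gene entered the fit only through the medium in which it was high, this ratio is a description. Ccn1 had 3.02, 1.81 and 1.81 CPM in QCM and 7.37, 8.42 and 2.80 CPM in SCM. SCM replicate 3 lay below QCM replicate 1, so the groups overlapped, and the log2 ratio was 1.24 ± 0.50 (SE; edgeR unadjusted p 0.0378).

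Of the cell surface genes, Myof had 12.2, 15.7 and 13.7 CPM in QCM and 41.3, 123.5 and 31.5 CPM in SCM. Every SCM sample lay above every QCM sample, at means of 13.9 ± 1.76 and 65.4 ± 50.5 CPM (SD, n = 3). In SCM replicate 1, 138 of 168 Myof UMIs lay in 10 nuclei and 113 in the 7 nuclei of cluster 14, which held 32.2% of all UMIs of that sample. Outside cluster 14 the values were 12.6, 16.1 and 13.7 CPM in QCM and 19.9, 126.3 and 31.7 CPM in SCM, still without overlap. The log2 ratio was 2.08 ± 0.48 (SE; edgeR unadjusted p 0.00257), and 1.23 without SCM replicate 2. DESeq2, the other count model used, called Myof with an adjusted p of 0.0137. For F3 the values were 9.65, 12.7 and 16.2 CPM in QCM and 13.8, 82.4 and 26.1 CPM in SCM. Here SCM replicate 1 lay inside the QCM range. In SCM replicate 2 the 10 highest nuclei held 757 of 1713 F3 UMIs, with 166 in 1 nucleus. The log2 ratio of F3 was 1.53 ± 0.57 (SE; edgeR unadjusted p 0.0294), and 0.54 without SCM replicate 2. Crim1, the BMP-binding protein, had 126.7, 282.5 and 173.4 CPM in QCM and 243.4, 306.4 and 200.9 CPM in SCM, with a log2 ratio of 0.24 ± 0.26 (SE; edgeR unadjusted p 0.391). Its groups overlapped over most of their range.

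The regulators and cytoskeletal genes split in the same way. Ptpn14, the YAP-binding phosphatase, had 1.53, 3.09 and 4.67 CPM in QCM and 9.58, 23.1 and 8.81 CPM in SCM, without overlap. In SCM replicate 1 this level rests on 39 UMIs, of which 37 lay in 10 nuclei and 27 in the 7 nuclei of cluster 14. Outside cluster 14 that sample had 4.35 CPM and lay within the QCM range of 1.59 to 4.67 CPM. Its log2 ratio was 2.05 ± 0.49 (SE; edgeR unadjusted p 0.0032), 1.46 without SCM replicate 2, and DESeq2 called it with an adjusted p of 0.0331. DESeq2 called 20 genes in all (0.105% of those tested), 19 of them higher in SCM. Rbms3 had 9.60, 12.9 and 29.0 CPM in QCM and 39.0, 54.7 and 37.7 CPM in SCM, again without overlap. Its log2 ratio of 1.22 ± 0.38 (SE; edgeR unadjusted p 0.0128) was 1.04 without SCM replicate 2.

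Asap1 had 49.8, 62.2 and 59.0 CPM in QCM and 65.6, 72.5 and 69.1 CPM in SCM. The groups did not overlap, although the difference was small, at a log2 ratio of 0.12 ± 0.15 (SE; edgeR unadjusted p 0.419). Dock5 had 96.5, 175.3 and 135.6 CPM in QCM and 179.0, 202.5 and 163.5 CPM in SCM, and Nuak2 had 21.6, 25.1 and 15.2 CPM and 30.9, 23.7 and 19.9 CPM. Both overlapped between the media, with log2 ratios of 0.28 ± 0.19 and 0.08 ± 0.26 (SE). Ccn2 is left out of the counts that follow, since its separation was fixed by how it passed the filter. Among the other 9 genes, Myof, Ptpn14, Rbms3 and Asap1 had SCM samples that all lay above the QCM samples in CPM. This held for 4.99% of all genes tested. None had SCM samples that all lay below, beside 2.09%. For Myof, Ptpn14, Rbms3 and Asap1 the exact permutation p was 0.1, the smallest that 3 samples against 3 allow. The separation depended on how nuclei were weighted. With the mean of CPM per nucleus 1 gene, Myof, was without overlap (beside 3.39% of all genes). With clusters 0 to 8 weighted equally it was Ptpn14 (5.01%). Without cluster 14, Myof and Rbms3 were without overlap (4.65%). Without the 5% of nuclei with the most UMIs, Myof, F3 and Asap1 were (4.91%). Ccn2, left out here, was also without overlap in each of these but the first.

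**Figure D1:**
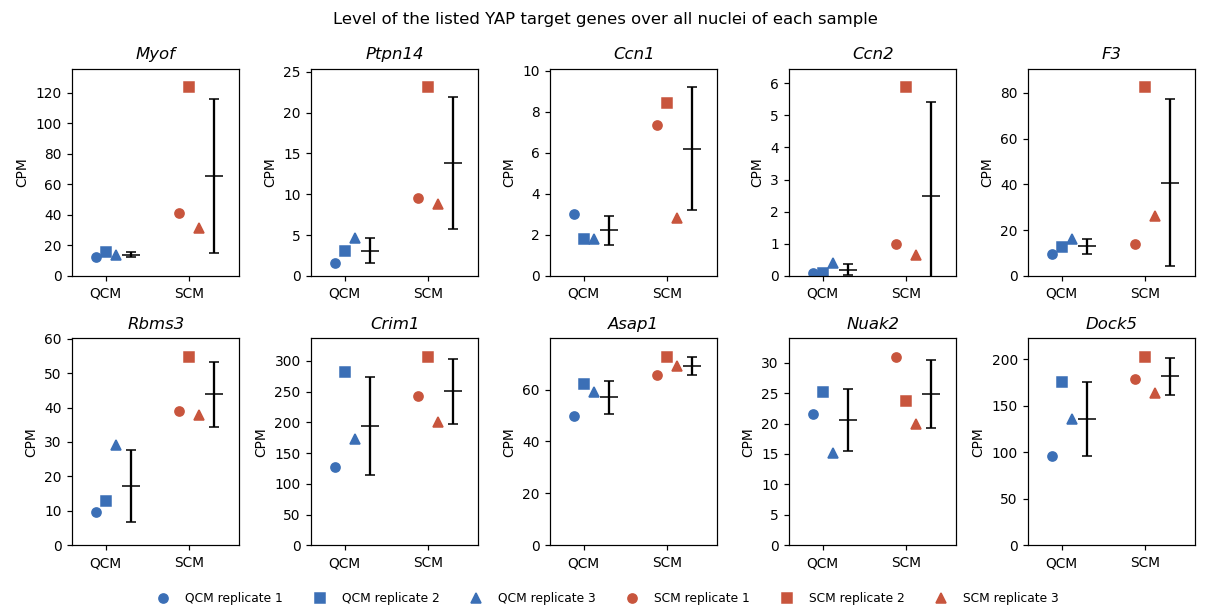
Level in CPM (y axis, from 0) of each listed gene over all nuclei of a sample, for the 3 QCM (blue) and 3 SCM (red) samples, with the mean and SD (n = 3) beside them in black. SCM replicate 2 is the highest sample for every gene but Nuak2, with 123.5 CPM for Myof, 5.87 CPM for Ccn2 and 82.4 CPM for F3. The media overlap for Ccn1, F3, Crim1, Nuak2 and Dock5.

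The ribosomal protein share was lower in SCM than in QCM at each replicate number, and the ranges overlapped. With that share as a covariate, the log2 ratios were 1.55 for Myof, 1.43 for Ptpn14, 1.48 for Ccn1, 2.36 for Ccn2, 1.07 for F3 and 1.15 for Rbms3, and -0.21 for Crim1. Without SCM replicate 1 the 6 larger log2 ratios were 2.32, 2.25, 1.12, 3.96, 1.93 and 1.31 in the same order, and without the shared barcodes they ran from 1.21 to 3.60. Nuak2 had -0.07 without SCM replicate 1. Markers of several cell types also differed in level between the media, and their part in the ratios was not tested. Of the fetal genes, 11 of 13 tested had a higher estimate in SCM, 6 of them at an unadjusted p under 0.05 and 0 called by edgeR, and their median log2 ratio was 1.41 (over all genes, as above, 48.6% and 1.46%). The summed fetal level over 15 genes was 187.3 to 268.9 CPM in QCM and 351.6 to 858.3 CPM in SCM. Of 10 enterocyte genes all 10 had a lower estimate in SCM, beside 51.4% of all genes tested, and 4 of them an unadjusted p under 0.05, beside 3.08% of all genes that were lower, with a summed level of 1301 to 5245 CPM in QCM and 573.2 to 1920 CPM in SCM. All 11 enteroendocrine genes were also lower in estimate, 5 of them at an unadjusted p under 0.05, at 238.3 to 436.8 and 107.1 to 249.0 CPM. Of 7 Paneth and 8 goblet genes 1 each had a higher estimate and 4 each were lower at an unadjusted p under 0.05, with median log2 ratios of -1.23 and -0.67. Of 9 stem cell genes 8 had a higher estimate, none at an unadjusted p under 0.05, with a median of 0.18. Of 7 tuft genes tested 3 had a higher estimate, none with an unadjusted p under 0.05 in either direction, with a median of -0.12 and summed levels of 15.7 to 30.5 CPM in QCM and 17.4 to 24.4 CPM in SCM. In sums over a sample, fewer nuclei of a type and less RNA per nucleus cannot be told apart.

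Across clusters, 5 of the genes were highest in the fetal-like cluster 7 and the other 5 elsewhere. Clusters were built by the authors from the expression of these nuclei, so the levels by cluster are a description with no test. F3 had 165.1 ± 106.7 CPM (SD, n = 6 samples) in cluster 7 and 21.1 ± 16.0 CPM in the next, cluster 1. Cluster 7 was the highest cluster for F3 in each of the 6 samples. Below it the order ran over clusters 1, 12, 9, 4, 5, 13, 3, 6, 10, 8, 2, 11, 0 and 14, from 21.1 down to 7.81 CPM, and no neighbours in that order differed by more than the larger of their SDs.

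By summed counts, Myof was also highest in cluster 7 in each of the 6 samples, at 207.5 ± 181.0 CPM (SD, n = 6). The goblet- and Paneth-like cluster 6 followed at 71.1 ± 30.8 CPM. Cluster 6 stood above the next, cluster 9 with 22.8 ± 12.5 CPM (n = 5), by more than either SD, whereas clusters 7 and 6 did not differ beyond the SD of cluster 7. From cluster 9 downward the order was 8, 11, 10, 4, 1, 3, 5, 2, 0, 14, 12 and 13, ending at 2.18 CPM, with no step beyond the SDs. Without the 5% of nuclei with the most UMIs in each sample, the highest mean level of Myof was in another cluster than 7, at 94.3 CPM. With the mean of CPM per nucleus, QCM had 48.25, 116.3 and 71.67 CPM in cluster 6 against 19.07, 41.07 and 28.62 CPM in cluster 7. Cluster 6 was also above cluster 7 in SCM replicate 3 (109.5 against 72.72 CPM), and below it in SCM replicates 1 and 2. Over all samples cluster 7 kept the higher mean on that scale, 115.7 against 91.99 CPM.

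Ptpn14 had 40.2 ± 33.6 CPM (SD, n = 6) in cluster 7 and 28.7 ± 20.1 CPM (n = 5) in the tuft-like cluster 11, which did not differ beyond these SDs. All other clusters lay at 7.47 CPM or below, in the order 3, 9, 4, 6, 1, 5, 2, 10, 14, 0, 12, 8 and 13, and the step from cluster 11 to cluster 3 exceeded both SDs. Cluster 7 was highest in 5 of 6 samples and cluster 11 in QCM replicate 3. With the mean of CPM per nucleus, and without the deepest nuclei, another cluster than 7 had the highest Ptpn14 mean.

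Ccn1 had 13.5 ± 8.71 CPM (SD, n = 6) in cluster 7, then 6.65 ± 3.17 CPM in cluster 3 and 5.49 ± 3.98 CPM in cluster 4. Cluster 7 was highest in 5 of 6 samples, but no step in the order of the clusters exceeded the SDs, down to 0 CPM in the 4 samples with enough nuclei of cluster 13. Ccn2 had 7.03 ± 10.7 CPM in cluster 7, and at most 1.19 CPM in any other cluster. Its 96 UMIs in cluster 7 were 0, 0 and 1 in QCM replicates 1 to 3 and 2, 90 and 3 in the SCM replicates, so that the level by cluster came mostly from SCM replicate 2, and with QCM samples alone another cluster was highest, at 0.82 CPM. No Ccn2 UMI was counted in clusters 11 to 14.

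Rbms3 had another pattern, highest in the enteroendocrine-like clusters 10 and 9 at 83.4 ± 47.1 and 76.9 ± 27.4 CPM (SD, n = 5), with cluster 7 next at 61.3 ± 48.2 CPM (n = 6). These means did not differ beyond the SDs. The order then ran over clusters 2, 11, 12, 3, 4, 6, 14, 5, 8, 1, 0 and 13, ending at 3.67 CPM. The 6 samples differed in their highest cluster, which was 10 in QCM replicates 1 and 3, 9 in QCM replicate 2 and SCM replicate 2, 3 in SCM replicate 1 and 7 in SCM replicate 3.

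Asap1 was highest in the enterocyte-like cluster 8 at 121.5 ± 35.9 CPM (SD, n = 6), followed by clusters 10 and 9 at 104.7 ± 13.4 and 100.2 ± 50.9 CPM (n = 5) and cluster 7 at 85.7 ± 16.2 CPM. After clusters 14 and 5 the level stepped down beyond the SDs, from 75.0 ± 16.5 CPM in cluster 5 to 57.4 ± 7.04 CPM in cluster 2, and the rest lay between 57.4 and 45.4 CPM in the order 2, 0, 4, 13, 6, 3, 12, 11 and 1. Dock5 and Nuak2 were also highest in cluster 8, at 203.1 ± 70.9 and 39.2 ± 31.2 CPM. By sample, cluster 8 was highest for Asap1 in QCM replicate 1 and SCM replicates 1 and 2 alone. It was so for Dock5 in QCM replicate 3 and SCM replicate 2 alone, and for Nuak2 in both samples of replicate number 1 alone. In SCM replicate 1 the Nuak2 level there was 99.4 CPM, from 12 UMIs. Without that sample the highest Nuak2 mean was in cluster 13, at 29.3 CPM. The highest cluster mean was 1.32 times the median cluster for Dock5 and 1.66 times for Nuak2, with no step beyond the SDs. Crim1 was highest in cluster 14 at 347.9 ± 66.6 CPM (n = 3) and lowest in cluster 13 at 148.5 ± 79.3 CPM (n = 4), 1.64 times the median cluster at its highest, again with no such step. The fetal-like cluster was among the lower 5 clusters for Crim1 and Nuak2, at 177.4 and 16.9 CPM.

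**Figure D2:**
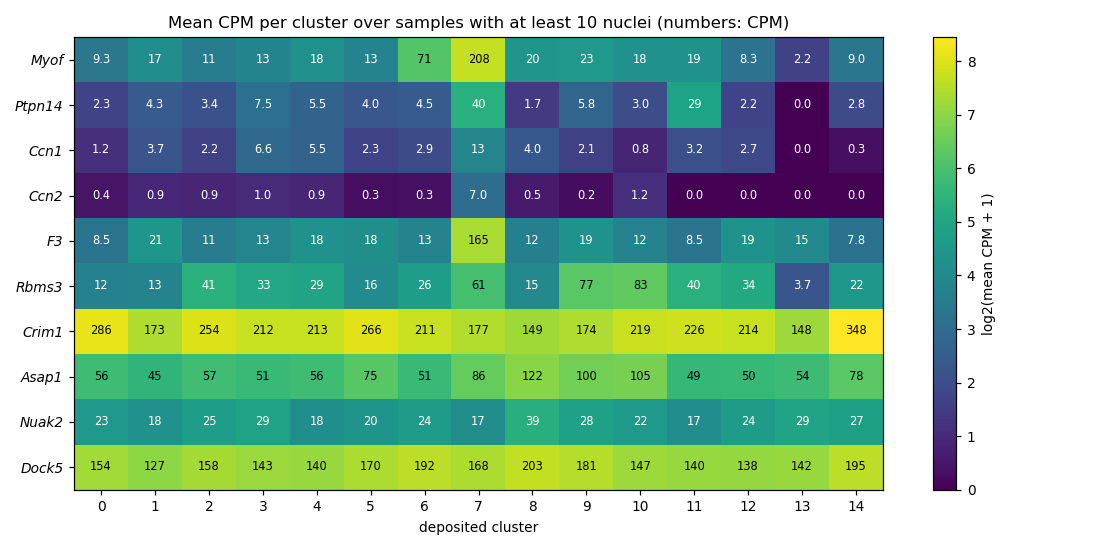
Mean CPM of each listed gene (rows) in each deposited cluster (columns), where a sample counted from 10 nuclei upward; colour gives log2(mean CPM + 1) and the printed numbers the CPM. Myof, Ptpn14, Ccn1, Ccn2 and F3 have their highest value in cluster 7, Rbms3 in cluster 10, and Crim1, Nuak2 and Dock5 vary little along the row.

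Over the 15 clusters, with counts pooled over samples on the scale of log2(CPM + 1), the closest pairs within the list were F3 and Ccn2 (Pearson r 0.89), Asap1 and Dock5 (0.81) and Myof and Ptpn14 (0.80). The lowest value for Nuak2 was -0.48, with Ptpn14. The points are clusters of the same libraries and differ in depth and in the share that each sample gives, so these are descriptions. Of the UMIs in cluster 7, 90 of 96 for Ccn2 and 1225 of 1847 for F3 came from SCM replicate 2, and without that sample F3 and Ccn2 had 0.46. Asap1 and Dock5 had 0.74 and Myof and Ptpn14 0.68 without it. With the mean of the samples' CPM the 3 pairs had 0.81, 0.64 and 0.74 in the order first given. On the pooled counts of all samples, among the 9922 or 9923 other genes with at least 20 CPM in a cluster, those most like Myof were Far1 and Elk3 (0.92 both), most like Ptpn14 Thbs1 and Gsap (0.91 and 0.90), and most like F3 Ccnd2 and Endod1 (0.95 both). For Ccn2 they were Msn and Dse (0.94 and 0.91), and for Ccn1 Il1rn and Col4a1 (0.88 and 0.85). For Rbms3 they were Cables2 and Hsf2 (0.92 and 0.87), for Asap1 Agtpbp1 (0.93) and for Nuak2 Slc17a4 and Gm26772 (0.91 and 0.87). For Crim1 they were Prmt3 and Phlpp1 (0.96 both), and for Dock5 Rapgef2 and Ascc3 (0.98 and 0.97).

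The share of each gene's UMIs that lay in cluster 7 set SCM replicate 2 apart from all other samples. Cluster 7 held 75.3% of the Myof UMIs in SCM replicate 2, against 33.6%, 27.8% and 19.8% in QCM replicates 1 to 3 and 13.7% and 46.7% in SCM replicates 1 and 3. For Ptpn14 the share was 72.3% in SCM replicate 2 and 9.68% to 49.6% in the others, and for F3 71.5%, with at most 44.8% in the others. Cluster 7 made up 3.83%, 2.72% and 3.31% of the nuclei in QCM and 3.95%, 4.06% and 4.84% in SCM. In SCM replicate 2, however, it held 16.4% of all UMIs, and its nuclei had 16681 UMIs on average, against 3606 in the other nuclei of that sample. In QCM the cluster 7 nuclei had 9950, 3196 and 2263 UMIs on average, close to the other nuclei of the same samples. They had 9038 against 9487 in SCM replicate 1 and 4054 against 2394 in SCM replicate 3.

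**Figure D3:**
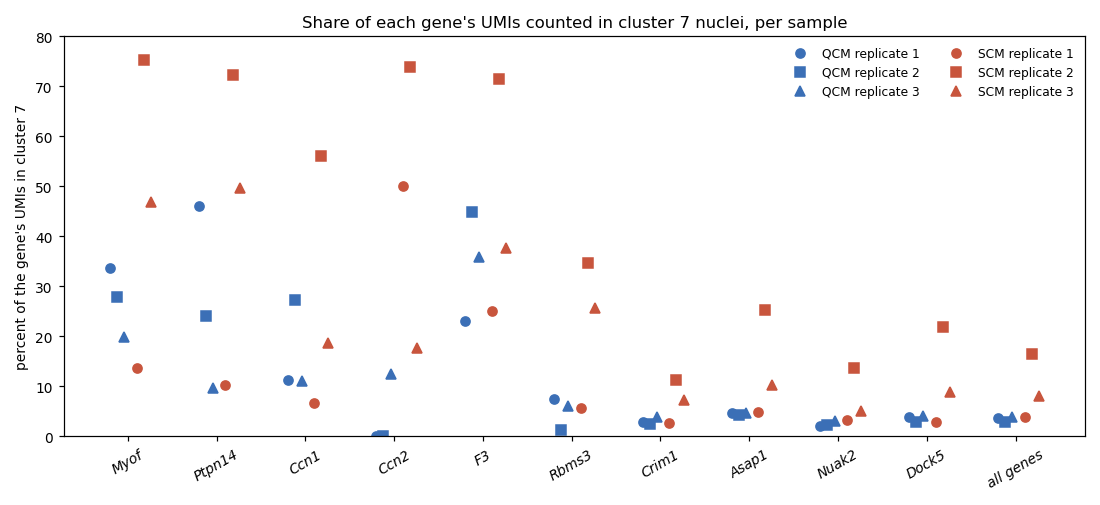
Percent of each gene's UMIs (y axis) counted in the fetal-like cluster 7, per sample, for QCM (blue) and SCM (red) replicates, with the share of all genes' UMIs at the right. SCM replicate 2 lies at 75.3% for Myof and 72.3% for Ptpn14, while all genes together have 2.84% to 16.4% of their UMIs in this cluster.

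Without such deep nuclei, and with other weights, the 6 larger ratios were mostly smaller. Without cluster 14 the log2 ratios over all nuclei were 1.91 for Myof, 1.87 for Ptpn14, 1.08 for Ccn1, 3.69 for Ccn2, 1.495 for F3 and 1.14 for Rbms3. Without cluster 7 they were 1.38 for Myof, 1.36 for Ptpn14, 0.99 for Ccn1, 2.37 for Ccn2, 0.99 for F3 and 1.00 for Rbms3. Without the 5% of nuclei with the most UMIs in each sample they were 1.09, 1.04, 0.83, 2.71, 1.04 and 0.83 in that order. With clusters 0 to 8 weighted equally, they were 1.23, 1.36, 0.97, 4.04, 0.75 and 1.17, as ratios of mean CPM. With the mean of CPM per nucleus, in which deep and shallow nuclei count alike, Myof had 1.596, Ptpn14 0.95, Ccn1 1.64, Ccn2 2.63, F3 1.23 and Rbms3 0.74. These too were ratios of mean CPM and not edgeR estimates. As ratios of mean CPM, summed counts gave 2.24, 2.16, 1.48, 3.69, 1.665 and 1.35 in the same order.

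**Figure D4:**
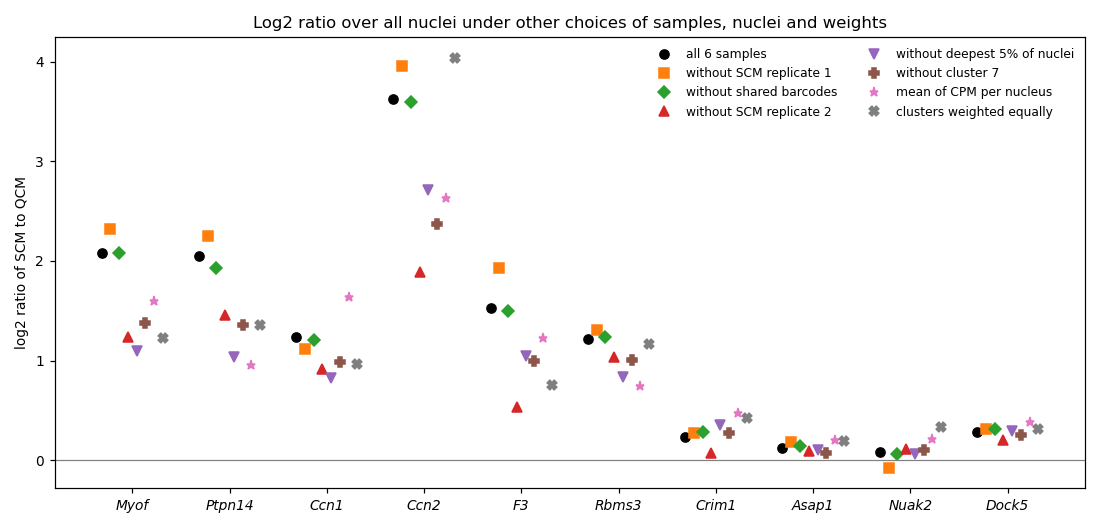
Log2 ratio of SCM to QCM over all nuclei (y axis) for each listed gene, with all 6 samples (black) and under 7 other choices of samples, nuclei and weights. Values with clusters weighted equally or with the mean of CPM per nucleus are ratios of mean CPM, and the others are edgeR estimates. The ratio of Myof is 2.08 with all samples and 1.09 without the deepest nuclei, and that of F3 is 1.53 and 0.54 without SCM replicate 2, while Crim1, Asap1, Nuak2 and Dock5 stay within 0.48 of 0.

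Within clusters, the estimates were again mostly higher in SCM. Counts were summed over the nuclei of a cluster, so nuclei with many UMIs weighed more here too, and the mix of nuclei inside a cluster was not tested. Of 84 gene and cluster pairs that could be tested in 13 clusters, 72 had a higher estimate in SCM, beside 49.3% of all pairs tested. The edgeR test called 0 of the 84 (0.0% of all pairs), and the lowest adjusted p was 0.339. The filter admitted 3 of the 84 through SCM samples alone, Ptpn14 in clusters 1 and 11 and Myof in cluster 4. Of the other 81, 69 had a higher estimate, and 19 were higher and 0 lower at an unadjusted p under 0.05, beside 1.2% of all pairs that were higher. With the 3 pairs admitted through SCM alone included, the count under that value was 21 of 84. Without SCM replicate 2, 63 of 87 pairs had a higher estimate, again with no such pair left out. In clusters 9 to 12 that fit had 1 SCM sample, so its p-values are not counted. DESeq2 called 2 of the pairs (0.073% of all pairs), Rbms3 in cluster 6 and Myof in cluster 7. Without a filter on low counts edgeR called 14 of 128 pairs (0.984% of all pairs), and with the replicate number as a block 1 (0.191% of all pairs). The pairs of different clusters share their samples, so they are not independent of each other.

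Myof was tested in 9 clusters, cluster 4 among them through SCM alone. Outside cluster 4 it had a higher estimate in every cluster tested, with log2 ratios from 0.15 in cluster 6 to 1.77 in cluster 2. It had an edgeR unadjusted p under 0.05 in clusters 0, 1, 2, 3 and 7. In cluster 2 it had 5.35, 3.78 and 5.64 CPM in QCM and 5.31, 32.9 and 12.0 CPM in SCM, so SCM replicate 1 stayed in the QCM range. In cluster 0 the values were 6.66, 4.19 and 5.79 CPM in QCM and 8.98, 18.4 and 11.5 CPM in SCM, without overlap, though SCM replicate 1 rests on 1 UMI. F3 had a higher estimate in 8 of 8 clusters (0.49 to 1.69; unadjusted p under 0.05 in 4). Ptpn14 had a higher estimate in clusters 0, 2, 3 and 7 (0.80 to 1.71), with an edgeR unadjusted p under 0.05 in clusters 2 and 7. Its pairs in clusters 1 and 11 entered through SCM alone and are left out here. The median log2 ratio over all clusters tested was 1.37 for Myof, 1.17 for F3 and 1.51 for Ptpn14. Pairs admitted through SCM alone are included in these medians. Without SCM replicate 2 these medians were 0.93, 0.55 and 1.12, with 1 SCM sample in any of clusters 9 to 12. In the fetal-like cluster, F3 had its smallest log2 ratio, 0.49 ± 0.47 (SE), with 63.1, 199.9 and 152.6 CPM in QCM and 91.1, 360.0 and 123.8 CPM in SCM. The groups overlapped there. With the mean of CPM per nucleus F3 had 18.5, 85.7 and 71.1 CPM in QCM and 165.9, 232.9 and 85.9 CPM in SCM, where QCM replicate 2 lay just below SCM replicate 3, without overlap. The value of SCM replicate 1 rests on 14 UMIs. Without SCM replicate 2 the edgeR estimate for F3 in cluster 7 was -0.38 ± 0.40 (SE).

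In cluster 7, Ptpn14 had 20.1, 26.1 and 11.8 CPM in QCM and 26.0, 102.0 and 55.1 CPM in SCM, a log2 ratio of 1.71 ± 0.41 (SE; edgeR unadjusted p 0.00149). Myof had 116.4, 153.6 and 71.0 CPM in QCM and 149.7, 568.3 and 185.9 CPM in SCM, a log2 ratio of 1.35 ± 0.46 (SE; edgeR unadjusted p 0.0136). Without SCM replicate 2 the ratios were 1.13 for Ptpn14 and 0.48 for Myof. For both genes SCM replicate 1, with 17 nuclei there, lay within the QCM range. With the mean of CPM per nucleus the groups did not overlap, at 19.1, 41.1 and 28.6 CPM in QCM and 227.4, 305.6 and 72.7 CPM in SCM for Myof. The Myof value of SCM replicate 1 rests on 23 UMIs. Rbms3 had 20.1, 5.79 and 46.0 CPM in QCM and 58.6, 115.5 and 121.9 CPM in SCM, without overlap, with a log2 ratio of 2.00 ± 0.49 (SE; edgeR unadjusted p 0.00187). For Rbms3 the mean of CPM per nucleus overlapped, at 9.58, 7.61 and 56.0 CPM in QCM and 55.6, 102.5 and 62.0 CPM in SCM. Ccn1 could be tested in this cluster alone, at 0.60 ± 0.60 (SE), and Ccn2 in none. All 9 genes tested in cluster 7 had a higher estimate, 3 of them at an unadjusted p under 0.05, beside 3.4% of all genes tested there that were higher. A higher estimate was found for 49.9% of all genes tested there.

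For Rbms3 the estimates ranged widely between clusters. Of 12 clusters tested its estimate was higher in 10, with an edgeR unadjusted p under 0.05 in 6. Without SCM replicate 2 the estimate was again higher in 10, and the median log2 ratio was 0.79 in place of 1.04. In the goblet- and Paneth-like cluster 6 it had 6.25, 5.45 and 17.1 CPM in QCM and 46.7, 43.9 and 35.5 CPM in SCM, a log2 ratio of 2.16 ± 0.42 (SE; edgeR unadjusted p 0.000336). The SCM values lay close together and all above QCM. In cluster 4 the estimate was -0.67 ± 0.71 (SE), from 6.84, 27.2 and 67.7 CPM in QCM and 12.0, 30.4 and 31.9 CPM in SCM, and in cluster 10 it was -0.22 ± 0.65.

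Of the genes with small ratios, Crim1 had a higher estimate in 12 of 13 clusters, with log2 ratios up to 0.61, and Dock5 in 12 of 13, up to 0.91 in cluster 10. Asap1 had a higher estimate in 9 of 12, and Nuak2 in 5 of 10. Asap1 in the enteroendocrine-like cluster 9 had a log2 ratio of 1.00 ± 0.30 (SE; edgeR unadjusted p 0.00799), from 77.0, 63.3 and 70.9 CPM in QCM and 102.6 and 187.3 CPM in SCM replicates 2 and 3. SCM replicate 1 had 3 nuclei there and did not enter. Of the 36 Crim1, Dock5 and Nuak2 pairs, only Dock5 in cluster 10 had an unadjusted p under 0.05 (0.0174).

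**Figure D5:**
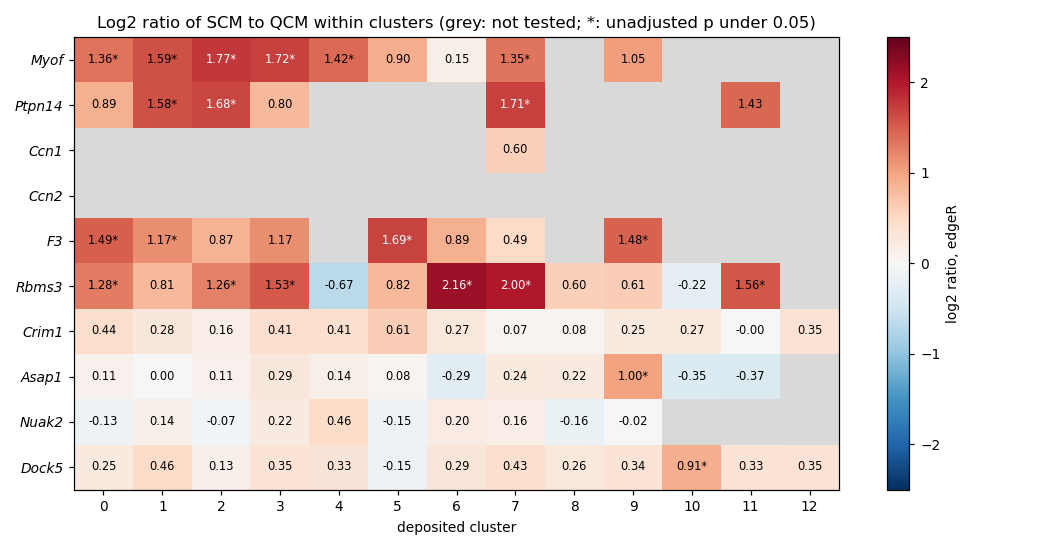
Log2 ratio of SCM to QCM from edgeR for each listed gene (rows) within each fitted cluster (columns), with grey for pairs not tested and a star for an unadjusted p under 0.05. The rows of Myof, Ptpn14 and F3 are positive throughout, and Rbms3 ranges from -0.67 in cluster 4 to 2.16 in cluster 6. Ptpn14 in clusters 1 and 11 and Myof in cluster 4 entered through SCM samples alone.

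Whether a cluster's response differed from that of the other nuclei of the same samples was tested directly, by the interaction of cluster and medium. Of 119 gene and cluster pairs tested, edgeR called 1 (0.0153% of all pairs tested). At an unadjusted p under 0.05 the ratio was higher than in the other nuclei for 4 pairs (beside 2.14% of all pairs) and lower for 13 (beside 2.16%). In cluster 4, 0.035% of all genes tested were called. The called pair was Rbms3 in cluster 4, where the log2 ratio was lower by -1.79 ± 0.33 (SE; edgeR adjusted p 0.0122) than in the other nuclei. Outside cluster 4, Rbms3 had 9.78, 12.7 and 24.7 CPM in QCM and 43.6, 55.2 and 37.9 CPM in SCM, without overlap. In cluster 4 the media overlapped, and the highest of the 6 values was that of QCM replicate 3. Without QCM replicate 3 the difference was -0.80 (edgeR adjusted p 0.998) and without SCM replicate 2 it was -1.73 (adjusted p 0.11), so the call rested on these samples. Cluster 4 held 157 of the 430 nuclei of SCM replicate 1, and without that sample the difference was -1.53 (adjusted p 0.000396).

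The next smallest adjusted p was that of Rbms3 in the enteroendocrine-like cluster 10, with a difference of -1.48 ± 0.35 (SE; edgeR adjusted p 0.0526). Inside that cluster it had 152.8, 24.1 and 68.9 CPM in QCM and 98.1 and 73.0 CPM in SCM replicates 2 and 3, and outside it 8.66, 12.8 and 28.2 CPM and 54.2 and 37.3 CPM. The media overlapped inside and not outside. SCM replicate 1 had 4 nuclei there and did not enter, and without QCM replicate 1 the difference was -0.34 (adjusted p 1.0). It was called in 2 of 5 alternatives, those without QCM replicate 2 or 3. The alternative with at least 50 nuclei was the same fit as that without QCM replicate 1.

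Myof in the goblet- and Paneth-like cluster 6 followed, with a difference of -2.14 ± 0.38 (SE; edgeR adjusted p 0.0632). Inside the cluster it had 39.1, 101.0 and 67.3 CPM in QCM and 30.04, 97.6 and 91.6 CPM in SCM, with no separation of the media. Outside it had 10.5, 9.46 and 10.9 CPM in QCM and 42.1, 125.6 and 28.7 CPM in SCM, every SCM value above every QCM value. The difference was called in 7 of 8 alternatives, all but the one without SCM replicate 2. The alternative with at least 50 nuclei was the same fit as that without SCM replicate 1, which had 15 nuclei there. Of the 9 genes tested in cluster 7, none differed at the threshold between that cluster and the other nuclei, and Ccn2, which has most of its UMIs there, could not be tested. The closest was Rbms3, with a difference of 1.07 ± 0.33 (SE; edgeR adjusted p 0.68).

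The upstream pathway was compared by a list of 18 Hippo core and TEAD genes, all tested. A higher estimate was found for 17 of 18, beside 48.6% of all genes tested. Of these, 2 had an unadjusted p under 0.05, beside 1.46% of all genes that were higher, and 0 were called by edgeR, with a median log2 ratio of 0.18. Yap1 itself had 84.4, 139.0 and 119.3 CPM in QCM and 145.1, 150.9 and 132.0 CPM in SCM, a log2 ratio of 0.18 ± 0.17 (SE; edgeR unadjusted p 0.312). Wwtr1, which encodes TAZ, had 0.95 ± 0.52 (SE), and Tead1 0.32 ± 0.20. Tead4 had 1.27, 1.65 and 2.71 CPM in QCM and 5.65, 8.18 and 3.40 CPM in SCM, without overlap, at 1.46 ± 0.43 (SE; edgeR unadjusted p 0.00937) and 1.0997 without SCM replicate 2. Its groups overlapped with the mean of CPM per nucleus and with clusters weighted equally, where the SCM means were 1.41 and 1.43 times the QCM means, against 3.06 times for summed counts. The other gene under an unadjusted p of 0.05 was Amotl1, a scaffold of the angiomotin family, with 0.902, 0.824 and 1.46 CPM in QCM and 2.46, 10.9 and 2.42 CPM in SCM. Its log2 ratio was 2.17 ± 0.65 (SE; edgeR unadjusted p 0.0106), and 1.06 without SCM replicate 2. Neither Tead4 nor Amotl1 was under 0.05 without that sample (edgeR unadjusted p 0.0512 and 0.0768). With clusters weighted equally the Amotl1 groups overlapped, with SCM replicate 1 lowest at 0.236 CPM.

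Of 11 other YAP target genes known from general literature, 7 passed the filter on low counts, and 2 of the 11, Lats2 and Amotl2, are also in the list above. Of the 7 tested, 6 had a higher estimate, beside 48.6% of all genes tested. At an edgeR unadjusted p under 0.05, 0 were higher, beside 1.46% of all genes, and 1 was lower, beside 3.08%. The lower gene was Gadd45a, the DNA damage response gene, with a log2 ratio of -0.86 ± 0.37 (SE; edgeR unadjusted p 0.0492). None of the 7 was called by edgeR, and their median log2 ratio was 0.54. Among the most abundant of them, Arhgef17, a guanine nucleotide exchange factor, had 0.91 ± 0.58 (SE), Tgfb2, a secreted growth factor, 0.52 ± 0.44, and Amotl2, a scaffold that binds YAP, 0.54 ± 0.38. Ankrd1, another classical reporter, was too low to test, with 0 to 2.35 CPM per sample and overlapping media.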

How the data were processed

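Nuclei of the organoids were sequenced on a droplet platform with 3′ libraries. Per the methods of the study, reads were aligned to mm10 with Cell Ranger (version 2.1.1 in the submitters' processing notes), nuclei with outlying mitochondrial fraction, read total or feature number were removed, samples were integrated with Harmony and clusters were found with the Leiden algorithm. Whether intronic reads were counted, and whether strand was used, is not given in the sources used here. The deposited matrices hold raw UMI counts per gene and nucleus for each sample, and the deposited table of nuclei gives each nucleus a cluster number, which was used as another label and not as a measurement. All 38154 nuclei were used. The labels do not say whether samples of a medium came from separate cultures or mice. No doublet caller was run, and leaving out the 5% of nuclei with the most UMIs in each sample was an alternative.

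Nuclei are not replicates, so counts were added up over each sample's nuclei, or its nuclei in 1 cluster, and compared with the edgeR 4.0.16 quasi-likelihood test in R 4.3.3 (TMM, filterByExpr with a minimum count of 10, Benjamini-Hochberg over all genes tested, threshold 0.05). Samples with at least 10 nuclei of a cluster entered, with at least 2 samples per medium. When SCM replicate 2 or 3 was left out within clusters, 1 SCM sample remained in clusters 9 to 12. The interaction was fitted on 2 sums per sample, with the sample as a block. The SE beside an edgeR log2 ratio is that ratio's absolute value divided by the square root of the test's F statistic. It is therefore approximate. Alternatives used DESeq2 1.42.0, voom and limma 3.58.1, and the settings named in the closing section; DESeq2 and edgeR ran on the same counts. Scripts were tested on simulated data, with changes set in the better counted genes. In cluster 7 the edgeR test recovered 22% of 2-fold and 95% of 4-fold changes. For single values an exact permutation test was used (two-sided). Neighbouring clusters in an order were said to differ when their means differed by more than the larger SD. Clusters were named from at least 3 markers at 5 CPM or more and at least 2-fold above the other nuclei. All 10 genes were described, and other genes followed a written rule: the most abundant 4 of the other YAP targets, Yap1, Wwtr1, Tead1 and Tead4, and the 2 genes most correlated over clusters. Ankrd1, Amotl1 and the leading genes of cluster 7 were named after their values were seen. Genes and lists were chosen with earlier results of these data known. Samples with the same replicate number did not deviate together in every pair (r 0.30, 0.51 and -0.07). For samples with different numbers r ran from -0.46 to 0.09. The numbers were not used as pairs in the main fits, and a replicate block was an alternative. Some genes are not reported here.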

Additional observations from a re-analysis of the deposited data

Results flagged for a closer look

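The response of Rbms3 in cluster 4 differed from its response outside that cluster by -1.79 on the log2 scale (edgeR adjusted p 0.0122, interaction of cluster and medium), beside 0.035% of all genes tested that were called in this cluster. The difference had the same sign in 8 of 8 alternatives, from -2.30 to -0.80, and was called in 6 of them. Among these, the alternative with at least 50 nuclei left out no sample and repeated the main fit. Groups held 3 samples, so single samples were not screened for outliers.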

How the results depend on the processing

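Over all nuclei, DESeq2 called 2 of the 10 genes in place of 0 (0.105% of all genes tested), and the other 16 fits called 0. The number of genes with a higher estimate in SCM was 9 or 10 in all 19 alternatives, 2 of which weight nuclei or clusters equally and carry no test. The 3 other gene lists were followed over 17 alternatives, in which the number of genes tested changed with the filter. Higher estimates in SCM ran from 4 to 7 for the other YAP targets and from 13 to 18 for the Hippo and TEAD genes. For the fetal genes they ran from 8 to 13. Over single samples left out, the log2 ratio of Nuak2 ran from -0.13 to 0.25. Estimates below 0 were Crim1 with -0.21 when the ribosomal protein share was a covariate, and Nuak2 with -0.07 without SCM replicate 1 and -0.13 without QCM replicate 3. Within clusters, pairs called rose from 0 to 2 with DESeq2, to 14 without a filter on low counts (0.984% of all pairs) and to 1 with the replicate number as a block (0.191% of all pairs), which was Asap1 in cluster 9. Leaving out single samples gave 72.4% to 91.1% of pairs with a higher estimate, in part from fits with 1 SCM sample. The interaction called 1 pair, 2 with library size alone (0.0286% of all pairs), 3 with at least 50 nuclei (0.0916%), and 0 to 3 when single samples were left out (0.0179% to 0.227%), the 0 without SCM replicate 2. The replicate block changed no call over all nuclei, where the log2 ratio was 1.82 for Myof and 3.03 for Ccn2. The alternatives on shared barcodes, cluster 7, cluster 14 and the correlations over clusters were chosen after seeing the data.

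Depth limits the low genes most: Ccn2 had 14 UMIs in all QCM samples together, and SCM replicate 1 had 17 nuclei in cluster 7 and under 10 in several clusters, which were then left out for it. The cluster with the highest mean was kept in 10 of 10 alternatives for F3 and Ccn1, 9 for Myof and 8 for Ptpn14, and in 6 for Rbms3 and Dock5.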
